A study of Mus musculus with 6 samples.

Results

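The genes described here are 10 transcription factors that set and maintain the identity of the intestinal epithelium, namely Hnf4a, Hnf4g, Cdx1, Cdx2, Gata4, Gata6, Klf4, Klf5, Sox9 and Elf3. They were chosen by symbol, and all 10 were found in the deposited count tables of all genes. Their transcripts were read in epithelial cells sorted by EpCAM from mouse ileal crypts and profiled by droplet-based single-cell RNA sequencing, in which each captured transcript molecule is counted once as a UMI (unique molecular identifier). The 3 control libraries were labelled Fpr2f/f (WT) and came from mice whose Fpr2 gene is flanked by recombination sites. The 3 libraries labelled Fpr2VKO came from mice that also carry Cre recombinase under the Villin promoter, so that the deletion is aimed at intestinal epithelial cells. The animals were on the C57BL/6J background and adult. The product of Fpr2 is a receptor that senses formyl peptides, and the study asked how its loss affects the division of intestinal stem cells and the maturation of their daughter cells. The labels do not say how many animals a library holds, whereas the captions of the study give as many mice per group as there are libraries, so p-values measure the spread between libraries, each of which may be 1 mouse.

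Hepatocyte nuclear factors HNF4A and HNF4G are nuclear receptors that drive the enterocyte programme, and the caudal factors CDX1 and CDX2 give the epithelium its intestinal character. GATA4 and GATA6 are zinc finger factors, with GATA4 best known for its role in the proximal small intestine and GATA6 acting along its whole length. KLF4 is linked to goblet cell maturation and to the exit from the cell cycle, whereas KLF5 is linked to crypt cell division. SOX9 marks the crypt base, Paneth cells and tuft cells, and ELF3 is an epithelial ETS factor required for the maturation of enterocytes and goblet cells.

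On GRCm38, Hnf4a (ENSMUSG00000017950) lies at chr2:163506808-163572910 on the plus strand, Hnf4g (ENSMUSG00000017688) at chr3:3508030-3658052 (plus), Cdx2 (ENSMUSG00000029646) at chr5:147300805-147307270 (minus) and Elf3 (ENSMUSG00000003051) at chr1:135253575-135258568 (minus). Gata4 (ENSMUSG00000021944) lies at chr14:63198922-63271692 (minus), Klf5 (ENSMUSG00000005148) at chr14:99298691-99315036 (plus), Klf4 (ENSMUSG00000003032) at chr4:55527143-55532466 (minus) and Sox9 (ENSMUSG00000000567) at chr11:112782224-112787760 (plus). RefSeq start-site windows (GRCm38.p6, 250 bases before to 50 after the start) were found for 4 of the 10 genes. Klf4 is shown because it was the only one of the genes called by edgeR between the library groups, and Hnf4a because it has 2 listed starts, which the gene-level counts used here do not tell apart. The Klf4 window is chr4:55532426-55532725 on the minus strand, and those of Hnf4a are chr2:163506607-163506906 and chr2:163546905-163547204 on the plus strand. Each is written 5′ to 3′, and capitals mark matches on either strand to the GC box GGGCGG or the GATA motif AGATAA.
Klf4: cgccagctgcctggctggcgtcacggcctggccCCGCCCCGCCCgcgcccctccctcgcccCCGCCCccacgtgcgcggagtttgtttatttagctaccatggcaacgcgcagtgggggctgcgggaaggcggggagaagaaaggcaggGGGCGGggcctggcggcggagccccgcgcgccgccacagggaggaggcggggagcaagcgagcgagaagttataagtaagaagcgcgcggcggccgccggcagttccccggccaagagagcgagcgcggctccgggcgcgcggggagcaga
Hnf4a, upstream start: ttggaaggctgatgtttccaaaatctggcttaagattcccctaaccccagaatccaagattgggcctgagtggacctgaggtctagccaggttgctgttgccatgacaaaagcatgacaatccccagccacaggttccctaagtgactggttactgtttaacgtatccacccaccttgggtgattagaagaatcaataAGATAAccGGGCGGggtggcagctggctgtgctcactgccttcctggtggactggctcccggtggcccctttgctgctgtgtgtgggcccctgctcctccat
Hnf4a, downstream start: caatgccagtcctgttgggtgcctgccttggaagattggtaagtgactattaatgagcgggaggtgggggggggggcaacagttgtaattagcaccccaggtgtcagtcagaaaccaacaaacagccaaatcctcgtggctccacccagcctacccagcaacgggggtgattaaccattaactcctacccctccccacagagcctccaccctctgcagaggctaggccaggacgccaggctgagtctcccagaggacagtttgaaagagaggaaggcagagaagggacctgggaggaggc

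The Klf4 window was 74.3% G or C and held 4 GC boxes, of which 2 overlap, while the upstream Hnf4a window held 1 GC box next to 1 GATA motif. A GC box was present in 35.7% and AGATAA in 11.2% of all 32851 such windows. Matches to the HNF4 motif CAAAGTNCA (1.41% of all windows), the CDX motif TTTATNG (10.9%), the SOX motif ACAATGG (3.66%), the ETS motif GGAAGT (23.8%) and the AP-1 motif TGANTCA (7.81%) were looked for on both strands in the same way. None of the 5 windows of the 4 genes held these letters, and a match or its absence says nothing about binding.

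The libraries held 90142126 to 189516114 UMIs. Barcodes were kept as cells with at least 1000 UMIs, at least 500 genes and at most 20% mitochondrial UMIs, which gave 17104 cells (1868 to 4722 per library), 16676 of them after the removal of 428 likely doublets. The mitochondrial limit removed 65.7% to 90.1% of the barcodes that met the other limits, so the cells described are a minority of those captured. By library these shares were 78.0%, 65.7% and 70.9% in Fpr2f/f and 90.1%, 76.1% and 85.6% in Fpr2VKO. Fpr2 had 0 UMIs in every library, which at 766121974 UMIs in all allows a level of up to 0.00392 on the counts-per-million (CPM) scale, and the group labels could not be checked by it. Cells fell into 29 clusters, grouped by fixed marker lists into stem-like, transit-amplifying (TA)-like, enterocyte-like, Paneth-like, goblet-like, enteroendocrine-like and tuft-like classes, with 4348 cells in unnamed clusters and 275 immune-like cells set apart. The 10 genes were left out of the genes used for clustering. The tissue carried its ileal markers, since Fabp6, the ileal bile acid binding protein, reached 924 to 4817 CPM in enterocyte-like cells and Slc10a2, the ileal bile acid transporter, 9.39 to 66.7 CPM. Pairs of libraries shared 0 to 23 cell barcodes, where 1.80 to 5.68 would be shared if barcodes were drawn independently. Fpr2f/f replicate 2 shared 23 with Fpr2VKO replicate 1 (4.54 if independent), 22 with Fpr2VKO replicate 2 (5.54) and 21 with Fpr2f/f replicate 1 (5.29). Fpr2f/f replicate 1 shared 15 (2.54) and 8 (3.10) with Fpr2VKO replicates 1 and 2, which shared 11 with each other (2.66), and replicate 3 of each group shared 9 (2.25). The other pairs shared 0 to 4, and the cells were kept. Deviations from the group means correlated by 0.54 between the replicate 3 libraries. Those of replicate 3 with replicates 1 and 2 of the other group correlated by -0.27 to -0.22, and those among replicates 1 and 2 by 0.08 to 0.13. The deviations of the 3 libraries of a group sum to 0, so these values depend on one another.

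The question asked first of the 10 genes was where they are expressed. All were measured in all 6 libraries, with 12639 (Cdx2) to 136994 (Klf5) UMIs over the 16401 epithelial cells. Levels are a gene's UMIs in a class of a library on the CPM scale, which sets the UMIs of that class and library to a fixed total, given as mean ± SD over 6 libraries, and they are compared between classes of 1 gene and not between genes. The classes come from the same libraries, so the order of classes is a description without a test.

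**Figure D1:**
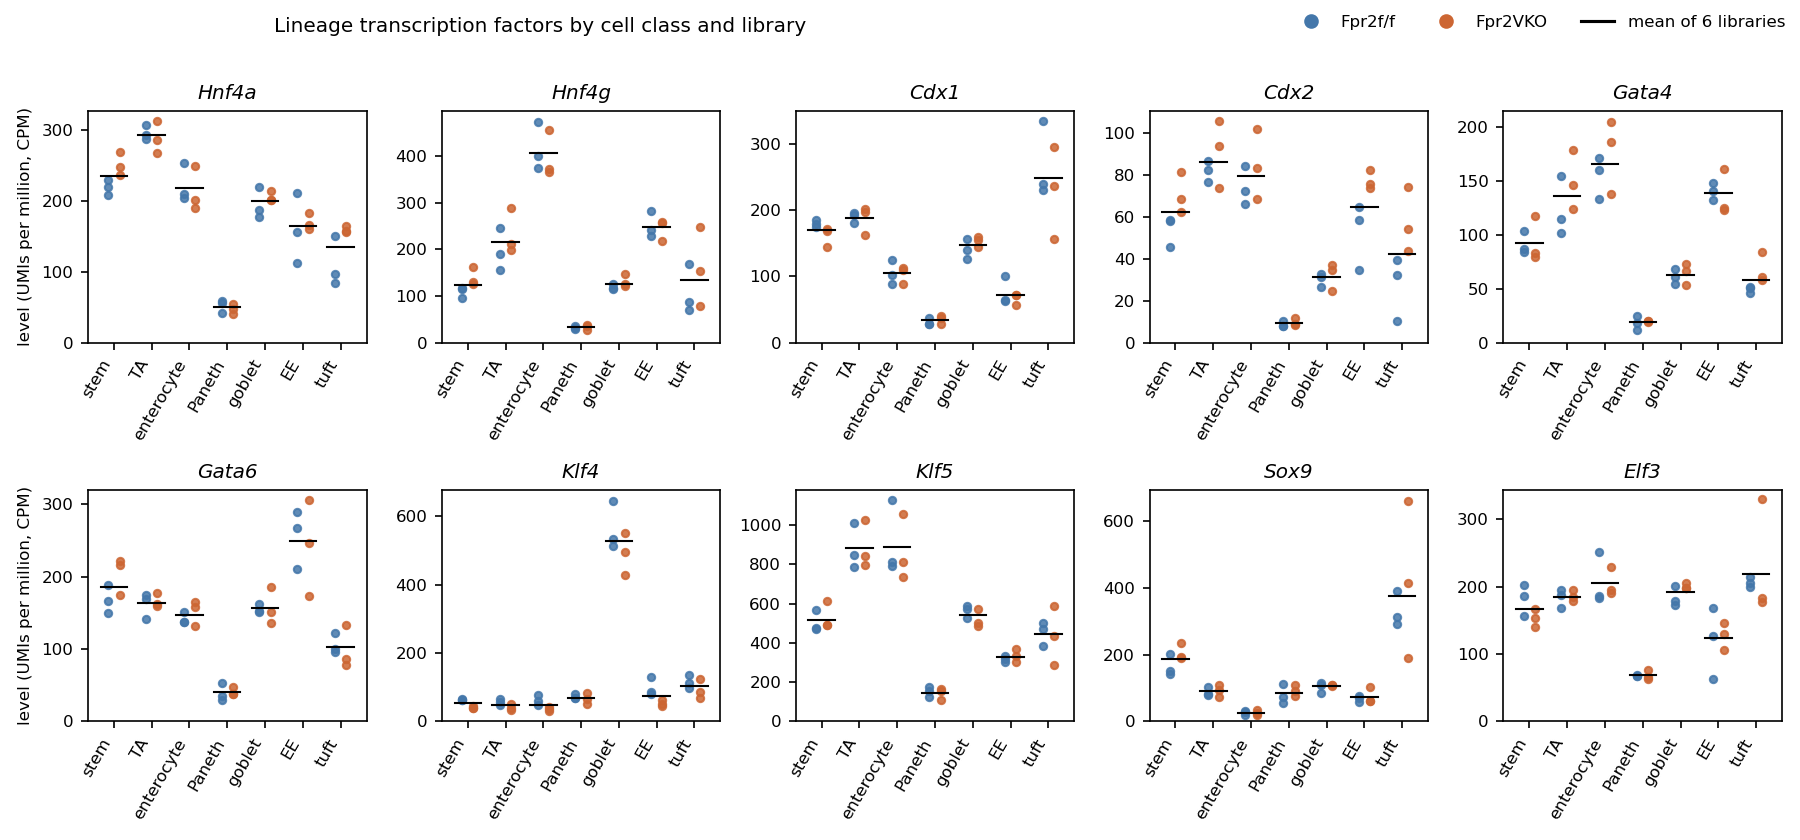
Level of each gene (CPM, y axis) in the 7 named cell classes (x axis, EE for enteroendocrine), with 1 point per library coloured by group and a black line at the mean of 6 libraries. Hnf4g peaked in enterocyte-like cells (407 CPM), Klf4 in goblet-like cells (528 CPM) and Sox9 in tuft-like (377 CPM) and stem-like cells (187 CPM), while 8 of the 10 genes were lowest in Paneth-like cells.

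Hnf4a was widely expressed, at 293 ± 15.9 CPM in TA-like cells, 236 ± 21.7 CPM in the stem-like class and 218 ± 27.0 CPM in enterocyte-like cells, and the library ranges of neighbouring classes overlapped down to tuft-like cells (135 ± 35.3). Hnf4g behaved otherwise. It stood at 375, 399 and 474 CPM in the enterocyte-like cells of the Fpr2f/f libraries and at 367, 373 and 455 CPM in those of the Fpr2VKO libraries, against 116, 96.6 and 116 CPM and 129, 126 and 162 CPM in stem-like cells. Every enterocyte-like value was thus above every stem-like value, the difference being 1.72 ± 0.26 on the log2 scale (n = 6), or 0.83 ± 0.10 when cells of up to 40% mitochondrial UMIs were kept. Enteroendocrine-like cells came next (248 ± 23.2 CPM), apart from the enterocyte-like range, whereas they overlapped with TA-like cells (215 ± 46.0 CPM). For Hnf4a the same difference between enterocyte-like and stem-like cells was -0.11 ± 0.25, with 2 of 6 libraries higher, and 0.22 ± 0.17 with 6 of 6 higher under the wider limit. It was higher in all 6 between shallow clusters (212 ± 31.5 CPM against 141 ± 18.6 CPM) and in 1 of 6 between deep clusters (224 ± 29.3 CPM against 265 ± 13.1 CPM). The log2 ratio of Hnf4a to Hnf4g UMIs went from 0.94 ± 0.20 (stem-like) through 0.47 ± 0.30 (TA-like) to -0.90 ± 0.03 (enterocyte-like), and the last of these ranged from -0.94 to -0.86 over the 6 libraries. It is a ratio of class sums, and Hnf4g differed with depth inside the enterocyte-like class. There Hnf4g was at 649 ± 101 CPM in shallow and 348 ± 43.4 CPM in deep clusters. In stem-like cells it was at 108 ± 20.7 and 130 ± 19.7 CPM.

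Cdx1 and Cdx2 also diverged along the absorptive lineage. Cdx1 (ENSMUSG00000024619) lies on the minus strand at chr18:61018862-61036199. Cdx1 was lower in enterocyte-like (104 ± 14.3 CPM) than in stem-like cells (170 ± 13.9 CPM) in all 6 libraries, by -0.71 ± 0.16 on the log2 scale. Cdx2 was higher in enterocyte-like (79.3 ± 13.3 CPM) than in stem-like cells (62.3 ± 12.1 CPM) in all 6, by 0.36 ± 0.15. Under the 40% mitochondrial limit this difference was 0.66 ± 0.22, and under a 10% limit it was higher in 4 of 5 libraries. Between shallow clusters Cdx2 was at 44.4 ± 11.1 CPM in enterocyte-like and 37.8 ± 9.70 CPM in stem-like cells. There it was lower in Fpr2f/f replicates 1 (26.8 against 27.0 CPM) and 2 (37.8 against 41.5 CPM). Between deep clusters it was at 90.3 ± 14.0 and 68.7 ± 11.2 CPM. Cdx1 had its highest mean in tuft-like cells (249 ± 60.8 CPM), a range that overlapped with that of TA-like cells (188 ± 14.4 CPM). Goblet-like cells kept Cdx1 (147 ± 12.9 CPM) and had little Cdx2 (31.2 ± 4.77 CPM), so that the log2 ratio of Cdx1 to Cdx2 was 2.25 ± 0.20 there and 0.40 ± 0.16 in enterocyte-like cells.

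Gata4 was measured in every class of this ileal tissue, as was Gata6 (ENSMUSG00000005836, chr18:11052064-11085635, plus strand). Its level was 166 ± 27.7 CPM in enterocyte-like, 138 ± 14.7 in enteroendocrine-like and 136 ± 28.4 in TA-like cells, which overlapped, and 92.6 ± 14.7 in stem-like cells. Goblet-like cells had 62.8 ± 8.02 CPM, below the whole stem-like range. Gata6 was highest in enteroendocrine-like cells (248 ± 49.8 CPM), overlapping with stem-like cells (186 ± 28.1 CPM), and 147 ± 13.6 CPM in enterocyte-like cells. From stem-like to enterocyte-like cells Gata4 differed by 0.84 ± 0.20 on the log2 scale (higher in 6 of 6 libraries) and Gata6 by -0.33 ± 0.18 (higher in 1 of 6). For Gata6 the direction turned with the depth of the clusters compared, since shallow enterocyte-like clusters (138 ± 15.6 CPM) were above the shallow stem-like cluster (101 ± 15.4 CPM) in all 6 libraries, and deep ones (149 ± 13.5 CPM) below the deep stem-like clusters (210 ± 18.0 CPM) in all 6.

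Among enterocyte-like cells, Gata4 separated the deeply read clusters. One of these (651 cells) was led by Reg1 and Fabp1, the latter a fatty acid binding protein of the proximal intestine, and the other (406 cells) by Fabp6. Gata4 stood at 202, 239 and 259 CPM (Fpr2f/f) and 183, 238 and 255 CPM (Fpr2VKO) in the Reg1 cluster, and at 108, 98.5 and 69.5 CPM and 60.4, 90.8 and 66.7 CPM in the Fabp6 cluster. The ranges did not overlap, and the log2 difference was 1.502 ± 0.39, higher in 6 of 6 libraries. Cdx1 went the other way by -0.73 ± 0.22, at 70.1 to 99.5 CPM in the Reg1 and 111 to 150 CPM in the Fabp6 cluster, and Klf5 by -0.41 ± 0.12. Klf4 did so furthest, by -1.32 ± 0.36, at 12.9 to 23.6 CPM in the Reg1 and 37.9 to 54.2 CPM in the Fabp6 cluster. Gata6 differed by 0.26 ± 0.11 and Hnf4g by -0.11 ± 0.19 between these clusters. In the shallow enterocyte-like cluster led by Fabp6 and Slc10a2 (1100 cells), however, Gata4 was at 161 ± 36.1 CPM, so a low Gata4 level was not shared by all Fabp6-led cells.

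Klf4 peaked in a single class. It stood at 514, 645 and 534 CPM (Fpr2f/f) and 551, 495 and 429 CPM (Fpr2VKO) in goblet-like cells, 5.08-fold above tuft-like cells (104 ± 24.4 CPM) and 10.9-fold above TA-like cells (48.6 ± 12.2 CPM). No library of another class reached the goblet-like range. Below tuft-like cells the classes overlapped from one to the next, at 75.9 ± 30.7 CPM in enteroendocrine-like, 69.9 ± 11.9 in the Paneth-like, 52.6 ± 12.4 in the stem-like and 49.6 ± 17.1 in the enterocyte-like class. At cluster level, a Paneth-like cluster led by Rnase1, Ccl9 and Mmp7 (202 cells) had 298 CPM against 39.3 CPM in the Paneth-like cluster led by Mptx2 and Defa3. The leading genes of the former include Mmp7 of the Paneth marker list and Spink4 of the goblet marker list, but no defensin. An unnamed cluster led by Ern2, a stress sensor of mucus-producing cells, had 242 CPM. Klf5 was highest in enterocyte-like (890 ± 161 CPM) and TA-like cells (886 ± 107 CPM), which did not differ beyond their spread, and lower in stem-like cells (519 ± 59.3 CPM) in all 6 libraries.

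Sox9 had the steepest fall along the absorptive lineage. In stem-like cells it was at 152, 144 and 203 CPM (Fpr2f/f) and 194, 191 and 237 CPM (Fpr2VKO), in enterocyte-like cells at 19.8, 32.7 and 29.2 CPM and 24.8, 19.5 and 33.9 CPM. These ranges were far apart, with a log2 difference of -2.82 ± 0.38. The fall was smaller between shallow clusters, at 84.9 ± 17.9 CPM in stem-like and 39.2 ± 11.3 CPM in enterocyte-like cells. Between deep clusters these levels were 220 ± 35.3 and 23.4 ± 4.94 CPM. Tuft-like cells, rare chemosensory cells, had the highest mean (377 ± 161 CPM) and the widest spread, from 190 to 662 CPM, so that they overlapped with stem-like cells. Goblet-like (105 ± 10.4 CPM), TA-like (90.0 ± 14.2) and Paneth-like cells (85.8 ± 22.5) were in between. Of the enteroendocrine-like clusters, the one led by Tac1 and Chgb had 91.1 CPM of Sox9 (mean of 5 libraries with at least 20 cells). The one led by Gcg, Cck and Gip had 14.4 CPM (mean of 3 such libraries).

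Elf3 varied least across classes, 3.19-fold from tuft-like (218 ± 56.5 CPM) to Paneth-like cells (68.5 ± 4.72 CPM), with overlapping ranges at each step from tuft-like to Paneth-like cells. By cluster it was highest in shallow ones, at 427 ± 38.7 CPM in the histone-led unnamed cluster and 408 ± 44.9 CPM in the enterocyte-like cluster led by Creb3l3.

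Low levels in Paneth-like cells went with a different make-up of their RNA. In that class the 20 most abundant genes took 71.5% of the UMIs (67.4% to 74.6% by library), compared with 17.2% to 30.1% as class means elsewhere among the named classes, and a cell held a median of 21689 UMIs. Counted per cell instead, Hnf4a gave 1.64 UMIs in Paneth-like and 2.32 in goblet-like cells, Elf3 2.31 and 2.23, and Sox9 2.89 and 1.20. Counts per cell rise with depth, and goblet-like cells held a median of 5085 UMIs. With cells thinned at random to 2000 UMIs, Hnf4a was found in 11.2% of Paneth-like and 33.6% of goblet-like cells. Elf3 was then found in 17.85% and 35.1%, and Sox9 in 16.0% and 18.5%.

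**Figure D2:**
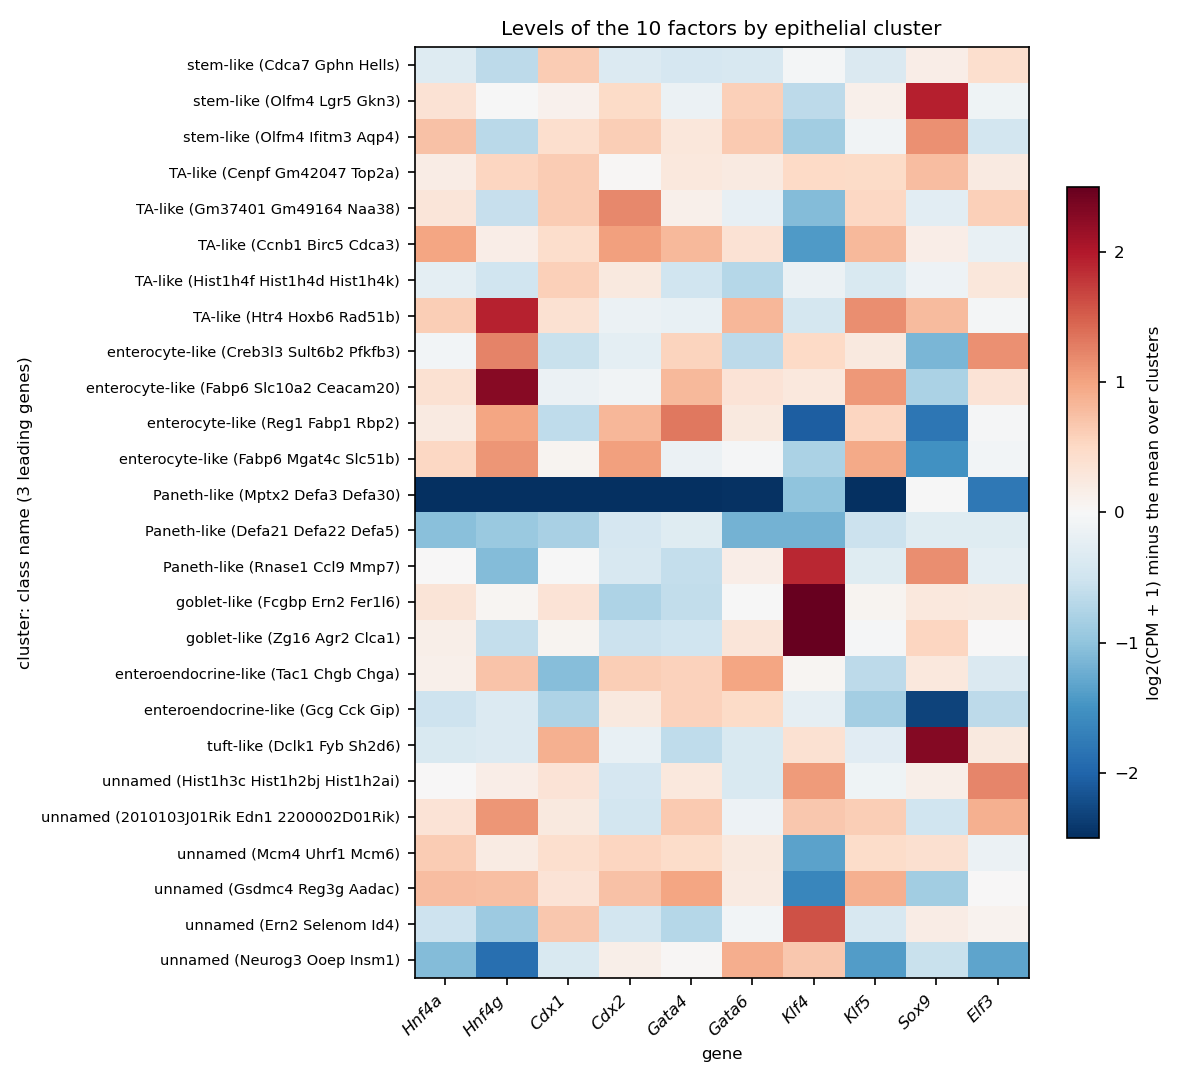
Level of each gene in the 26 epithelial clusters with at least 20 cells in 3 or more libraries (rows, with class name and 3 leading genes), as log2(CPM + 1) of the mean over libraries minus that gene's mean over the rows, with colours saturating at 2.5 in either direction. The deepest red of Klf4 is in the goblet-like clusters (544 and 480 CPM), that of Hnf4g in the Fabp6 and Slc10a2 cluster (827 CPM), that of Sox9 in tuft-like cells and that of Gata4 in the Reg1 cluster (229 CPM).

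The stem-like class held a shallow cluster led by Cdca7, Gphn and Hells (1239 cells, median 3087 UMIs) and deep clusters led by Olfm4 (313 and 262 cells, medians 21159 and 36663 UMIs). The shallow cluster was named from its average over the 8 stem cell markers. However, none of these markers is among its 10 leading genes, which include Hells and E2f1. Sox9 was at 84.9 ± 17.9 CPM in the shallow and 220 ± 35.3 CPM in the deep clusters, and Hnf4a at 141 ± 18.6 and 265 ± 13.1 CPM. Elf3 was at 245 ± 23.6 CPM in the shallow and 129 to 169 CPM in the deep clusters, and Klf4 at 77.4 ± 13.3 and 46.0 ± 8.91 CPM. Class levels are sums over both kinds of cells. Shallow cells made up 80.2%, 86.7% and 81.3% of the stem-like class in the Fpr2f/f libraries, against 59.8%, 41.6% and 42.9% in the Fpr2VKO libraries, and the groups did not overlap. By UMIs, which is how they enter the class level, their share was 23.4%, 46.2% and 39.7% against 16.1%, 7.89% and 7.33%.

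Detection per cell was compared after each cell was thinned to 2000 UMIs, leaving out shallower cells (291 of 1814 stem-like and 293 of 3414 enterocyte-like cells). Hnf4g was then found in 20.9% ± 4.91 of stem-like and 55.4% ± 2.99 of enterocyte-like cells, Sox9 in 23.7% ± 5.47 and 6.33% ± 1.66, and Klf4 in 58.3% ± 4.86 of goblet-like and 10.9% ± 1.62 of stem-like cells. Without thinning these shares were 45.7% and 81.7% for Hnf4g, 45.1% and 21.6% for Sox9, and 77.3% and 30.3% for Klf4. Immune-like cells served as a guide to the background from free RNA, though whether they express any of these genes themselves was not tested. Thinned to 2000 UMIs, they gave 5.54% for Hnf4g, 2.23% for Sox9, 4.69% for Klf4 and 13.4% for Klf5, the highest. Without thinning these were 12.9%, 5.74%, 15.3% and 25.5%, at a median depth of 5996 UMIs beside 4366 in stem-like cells. Their mean level was 36.0 CPM for Klf4 (62.7 CPM in free RNA) and 4.14 CPM for Cdx2 (35.1 CPM). Free RNA itself, in barcodes under 100 UMIs, held on average 145 CPM of Hnf4g, which was above the stem-like, goblet-like, tuft-like and Paneth-like means, and 197 CPM of Elf3, which was above all but the tuft-like and enterocyte-like means. For Sox9 (58.5 CPM) only the enterocyte-like mean was below free RNA, for Gata4 (88.1 CPM) the goblet-like, tuft-like and Paneth-like means, and for Cdx2 (35.1 CPM) the goblet-like and Paneth-like means. Klf4 (62.7 CPM) was below it in stem-like, TA-like and enterocyte-like cells, Cdx1 (77.7 CPM) and Klf5 (386 CPM) in enteroendocrine-like and Paneth-like cells, and Hnf4a (117 CPM) and Gata6 (77.4 CPM) in Paneth-like cells only. In all 70 pairs of a gene and a named class the mean share at 2000 UMIs was above the immune-like mean. In 63 the lowest library was above the highest immune-like one. At this depth Hnf4a was found together with Hnf4g in 17.9% of enterocyte-like cells, where the product of their shares is 17.7%, and Gata4 with Gata6 in 5.67% of TA-like cells (product 4.59%). In Paneth-like cells all 4 pairs were found together more often than the product, at 1.48% against 1.03% for Hnf4a with Hnf4g, 0.591% against 0.230% for Cdx1 with Cdx2, 1.08% against 0.485% for Gata4 with Gata6 and 5.51% against 3.97% for Klf4 with Klf5. Hnf4a with Hnf4g was below the product in enteroendocrine-like cells (7.85% against 9.47%), and Gata4 with Gata6 in goblet-like cells (2.27% against 2.57%). Cdx1 with Cdx2 was below it in stem-like (2.82% against 3.13%), TA-like, enterocyte-like, goblet-like and enteroendocrine-like cells. Klf4 with Klf5 was so in stem-like (5.65% against 6.27%), TA-like, enterocyte-like, goblet-like and tuft-like cells. For the joint shares and their products, the cells of all libraries and clusters of a class were pooled (1016 Paneth-like cells). The smallest joint shares thus rest on few cells, and the part of the mix of clusters and libraries was not tested. All of these shares are descriptions without a test.

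Across the 42 library sums of the named classes, with each library's mean removed, Hnf4g and Gata4 had the most similar pattern among the 10 genes (Pearson r = 0.94), followed by Cdx2 and Gata4 (r = 0.92). Sox9 and Hnf4g were the most opposed (r = -0.44). Among 6342 genes, the closest to Klf4 were Fcgbp (r = 0.94), Tff3 (r = 0.93), both goblet cell mucus genes, and P2rx4 (r = 0.92). Fcgbp and Tff3 are also among the markers that named the goblet-like class. Sox9 was closest to Pla2g4a (r = 0.92), a phospholipase, Rfc1 (r = 0.84) and Rbm38 (r = 0.83), and Elf3 to Pfn1, Epcam and Jup (r = 0.95, 0.95 and 0.94). For Hnf4g they were Coro1c, Sppl3 and Ahcyl2 (r = 0.96 each), for Hnf4a Kars, Jpt1 and M6pr (r = 0.96, 0.95 and 0.95), and for Gata4 Micos10, Lrba and Nudt4 (r = 0.98, 0.97 and 0.97). The remaining genes resembled Rpl38, Rps29 and Jpt2 (Cdx1), Vps26a, Lrpprc and Cycs (Cdx2), Eloc and Cog5 (Gata6), and Uqcrh, Tmco1 and Cox6a1 (Klf5), with r from 0.95 to 0.97. The sums share 6 libraries and the low values of Paneth-like cells, so these are descriptions of 42 points that are not independent.

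A list of 28 other transcription factors and a list of 17 enterocyte genes known as targets of HNF4, CDX, GATA or KLF4 gave the surroundings. From stem-like to enterocyte-like cells, 4 of the 10 factors were higher in all 6 libraries (Hnf4g, Cdx2, Gata4, Klf5) and 2 lower (Cdx1, Sox9), with a median difference of 0.09 on the log2 scale, beside 2532 and 2104 of 6310 genes with a median of 0.05. Of the other factors 13 were higher and 10 lower in all 6 libraries. The largest differences were those of Creb3l3, a regulator of lipid metabolism (4.63 ± 0.37), and Maf (4.06 ± 0.46), and the smallest those of Sox4 (-4.04 ± 0.49) and Foxa2 (-3.20 ± 0.42), factors of the secretory lineages. All 17 target genes were higher, from Dpp4 (1.32 ± 0.24) and Cdh17 (1.72 ± 0.16) to Sis (6.46 ± 0.44) and Fabp1 (6.54 ± 0.48), but 8 of the 17 are among the markers that named the enterocyte-like class.

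Whether deletion of Fpr2 was accompanied by other levels of these factors was tested on the UMI sums of each library, once for all epithelial cells together and once for each class, with edgeR's quasi-likelihood test across all genes and Benjamini-Hochberg adjusted p-values. Over all epithelial cells, where the share of a class and the level within it cannot be told apart, 0 of the 10 genes changed at an adjusted p under 0.05, 2 had an unadjusted p under 0.05, and DESeq2 called 0. Of all 16556 genes 0.0181% were called there. Sox9 was at 71.3, 68.8 and 91.5 CPM in the Fpr2f/f and 87.9, 88.9 and 104 CPM in the Fpr2VKO libraries, with a log2 fold change of 0.31 ± 0.13 (SE, adjusted p = 0.508). The groups overlapped. Klf4 was at 86.5, 126 and 105 CPM against 94.0, 73.3 and 68.0 CPM, with a log2 fold change of -0.42 ± 0.18 (adjusted p = 0.511), and again the groups overlapped. For the other 8 genes the estimates lay between -0.08 (Elf3) and 0.15 (Cdx2). None of the 10 genes had groups without overlap, a pattern shown by 13.8% of all genes.

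**Figure D3:**
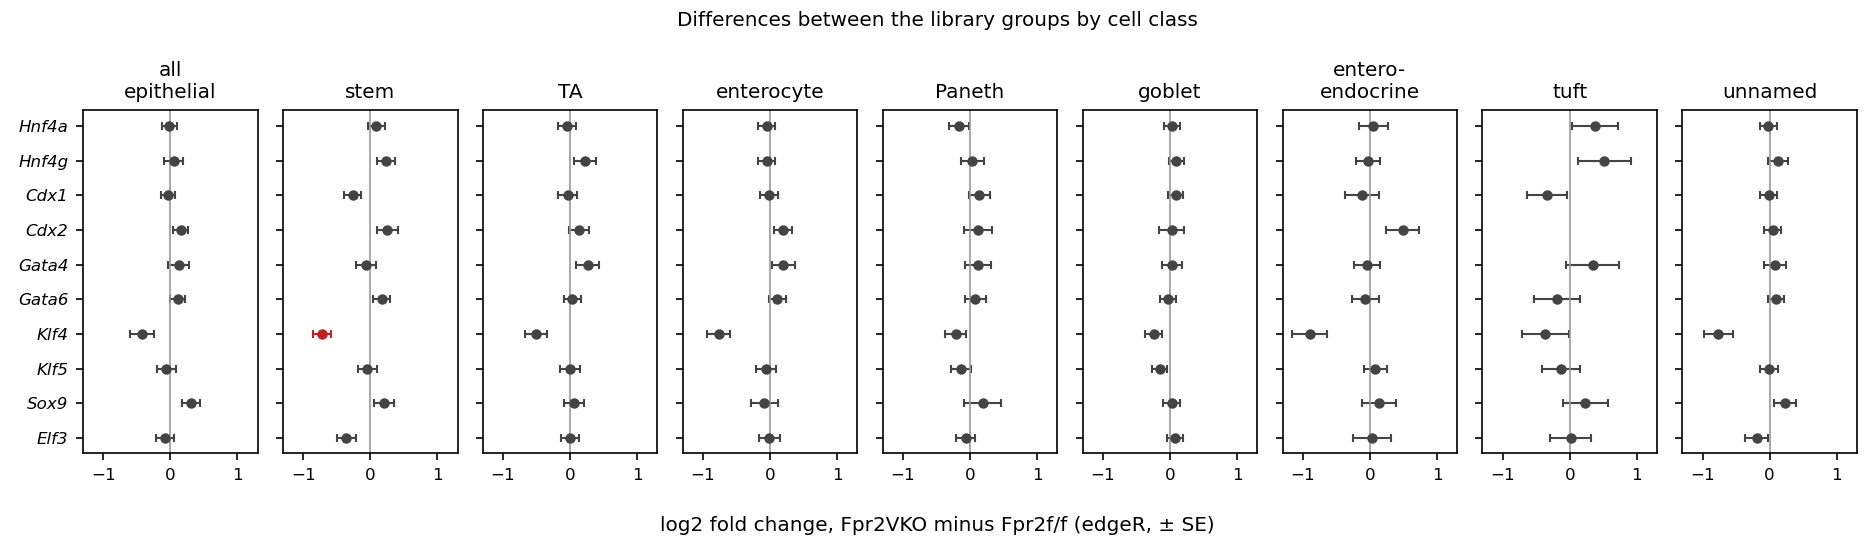
Log2 fold change of each gene (rows), Fpr2VKO minus Fpr2f/f, from edgeR in all epithelial cells and in each class (panels), with bars of 1 SE. The red point, Klf4 in stem-like cells at -0.72, is the only one with an adjusted p under 0.05, and Cdx2 was too low in tuft-like cells to be tested.

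Klf4 in stem-like cells was the only called difference. It was at 67.0, 61.8 and 62.3 CPM in the Fpr2f/f libraries and at 39.8, 44.3 and 40.6 CPM in the Fpr2VKO libraries, from 126 to 238 UMIs each. All Fpr2VKO libraries were lower than all Fpr2f/f libraries, and Klf4 fell by 0.72 ± 0.14 (SE) on the log2 scale (edgeR, adjusted p = 0.0113). In this class 1.36% of 10799 genes were called, 1.06% as lower in Fpr2VKO, and 21.5% had groups without overlap. The call was lost without Fpr2f/f replicate 2 (adjusted p = 0.0642), without replicate 3 of that group (0.0511) and without Fpr2VKO replicate 1 (0.0602), where the log2 fold change was between -0.73 and -0.70. The genes called in all were then 38 of 10840, 33 of 11157 and 61 of 10866. Replicates 1 and 2 gave the same direction as replicate 3, at 67.0 and 61.8 CPM against 39.8 and 44.3 CPM, and 62.3 CPM against 40.6 CPM. The call was also lost, with log2 fold changes of -0.0071 (adjusted p = 1.00) and -0.46 (0.172), when cells were kept and clustered under mitochondrial limits of 10% and 40%, the former with 5 libraries because Fpr2VKO replicate 3 kept fewer than 20 stem-like cells. Under these limits 1 of 8719 and 44 of 11659 genes were called in all.

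This difference moved together with the make-up of the class, in which shallow cells were fewer in Fpr2VKO. Within the shallow cluster Klf4 was at 94.6, 71.7 and 83.7 CPM in Fpr2f/f and 55.1, 80.2 and 79.0 CPM in Fpr2VKO libraries, and the groups overlapped. Within the deep Olfm4 clusters it was at 58.6, 53.4 and 48.2 CPM against 36.8, 41.2 and 37.5 CPM, without overlap, which 11.3% of all genes showed in these clusters. When only these deep clusters were tested, an analysis added after the clusters were seen, the log2 fold change was -0.46 (adjusted p = 0.653) and 1 gene in all was called.

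Klf4 in free RNA moved with the groups as well. Barcodes under 100 UMIs held 59.3, 93.4 and 75.6 CPM of Klf4 in the Fpr2f/f and 58.1, 46.7 and 43.2 CPM in the Fpr2VKO libraries, a range that overlaps with that of stem-like cells, whereas immune-like cells had 23.0 to 45.02 CPM in Fpr2f/f and 29.7 to 46.3 CPM in Fpr2VKO. The 7 goblet cell markers were all present in stem-like cells, at a summed level of 453 to 921 CPM in Fpr2f/f and 432 to 721 CPM in Fpr2VKO, and 7 of 7 had a lower mean in Fpr2VKO. The 8 stem cell markers went from 5912 to 8043 CPM in Fpr2f/f to 11539 to 12406 CPM in Fpr2VKO. Of the other lists in stem-like cells, the 13 enterocyte markers summed to 453 to 547 CPM against 655 to 686 CPM, without overlap and with 7 of 13 higher in Fpr2VKO, the 8 TA markers to 1106 to 1720 CPM against 1590 to 2184 CPM, with 8 of 8 higher in Fpr2VKO, and the 8 Paneth cell markers to 362 to 2068 CPM against 649 to 1146 CPM, with 7 of 8 lower. Stem-like cells held a median of 3528 UMIs in Fpr2f/f and 7820 UMIs in Fpr2VKO, with mitochondrial shares of 11.9% to 13.05% and 12.8% to 14.2%. The part of depth, class make-up, free RNA and transcripts of other classes in the Klf4 result was not tested.

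Atf3, Jun, Fos and Egr1, immediate early genes that respond quickly to stimuli, were added after the Klf4 values had been seen. In stem-like cells their log2 fold changes were -0.87 ± 0.44, -0.40 ± 0.33, 0.11 ± 0.47 and -0.28 ± 0.42, and no adjusted p was below 0.419. Over the other classes they ran from -0.97 to 0.06 (Atf3), -0.69 to 0.11 (Jun), -0.24 to 0.46 (Fos) and -0.89 to 0.18 (Egr1). Among those classes Atf3 and Jun were lowest in unnamed and enterocyte-like cells, and none of these genes was called.

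**Figure D4:**
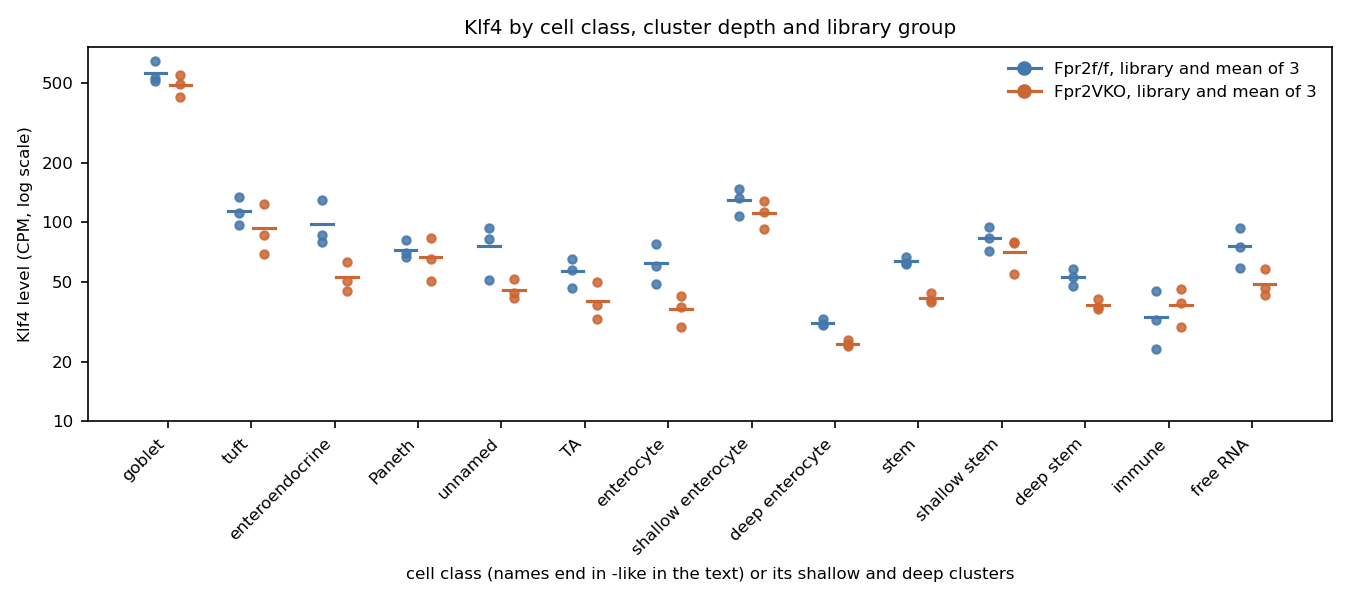
Level of Klf4 (CPM, log axis) by library group in each cell class, in the shallow and deep clusters of the enterocyte-like and stem-like classes, in immune-like cells and in free RNA, with 1 point per library and a line at the mean of 3. In stem-like cells all Fpr2VKO libraries (39.8 to 44.3 CPM) lie below all Fpr2f/f libraries (61.8 to 67.0 CPM), and free RNA spans 43.2 to 93.4 CPM.

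In the other classes the Klf4 estimate was also below 0, without a call. It was -0.77 ± 0.17 in enterocyte-like cells (edgeR, adjusted p = 0.244), where 0.00844% of all genes were called. The libraries had 48.9, 77.6 and 60.3 CPM in Fpr2f/f and 42.7, 29.99 and 37.8 CPM in Fpr2VKO, without overlap (15.8% of all genes). DESeq2 called Klf4 in this class (adjusted p = 0.0259), among 60 of 11850 genes called, where edgeR called 1. In Fpr2f/f the shallow clusters held 70.8%, 85.7% and 73.0% of this class, compared with 66.7%, 45.1% and 46.7% for Fpr2VKO, or by UMIs 21.4%, 40.6% and 29.0% against 20.6%, 8.76% and 11.97%, and Klf4 was at 120 ± 19.0 CPM in the shallow and 28.0 ± 3.79 CPM in the deep ones. Within the shallow clusters Klf4 was at 108, 147 and 133 CPM in Fpr2f/f against 113, 93.3 and 127 CPM in Fpr2VKO, and the groups overlapped. Within the deep enterocyte-like clusters it was at 32.8, 30.5 and 30.7 CPM against 24.4, 23.9 and 25.6 CPM. The log2 means of the groups differed there by -0.35, and the groups did not overlap (9.8% of all genes did not). These clusters differ in Klf4 and in their mix, since the Reg1 cluster held 66.7%, 53.0% and 36.5% of the deep cells in Fpr2f/f, compared with 66.9%, 78.1% and 62.1% for Fpr2VKO. In the Reg1 cluster Klf4 was at 23.6, 19.4 and 18.9 CPM against 12.9, 16.5 and 18.7 CPM, without overlap (10.1% of all genes). In the Fabp6 cluster it was at 51.8, 44.3 and 37.9 CPM against 46.2, 54.2 and 38.7 CPM, and the groups overlapped. The 7 goblet cell markers summed to 544 to 1518 CPM in the enterocyte-like cells of Fpr2f/f and 411 to 1042 CPM in those of Fpr2VKO, with a lower mean in Fpr2VKO for 6 of 7. The part of the mix of clusters and of goblet transcripts in this difference was not tested. In enteroendocrine-like cells Klf4 went from 80.1, 129 and 86.5 CPM to 63.3, 50.7 and 45.3 CPM (-0.90 ± 0.25, edgeR, adjusted p = 0.996). The groups again did not overlap (8.41% of all genes). In goblet-like cells, where the level of Klf4 (528 CPM) was far above that of free RNA (62.7 CPM), the estimate was -0.24 ± 0.13 (adjusted p = 0.749) and the groups overlapped. The remaining estimates were -0.51 ± 0.16 (TA-like), -0.22 ± 0.16 (Paneth-like), -0.36 ± 0.35 (tuft-like) and -0.77 ± 0.22 (unnamed). These classes come from the same libraries and are not separate replications. An edgeR test of whether the group difference varied between classes gave an unadjusted p of 0.00541 and an adjusted p of 0.594 for Klf4, and 0 of the 10 genes, 1 of them with an unadjusted p under 0.05, and 0.0071% of all genes were called.

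Apart from Klf4, 5 genes had groups without overlap in some class, none with a call. In stem-like cells Cdx1 was lower in all Fpr2VKO libraries (178, 175 and 185 CPM against 171, 144 and 169 CPM, log2 fold change -0.26 ± 0.13), while Hnf4a, Hnf4g and Cdx2 were higher in all of them, in a class where 21.5% of all genes had no overlap. Within the shallow and within the deep stem-like clusters the groups overlapped for each of these 4 genes. Hnf4g, at 116, 96.6 and 116 CPM against 129, 126 and 162 CPM, had an estimate of 0.24 ± 0.13 (adjusted p = 0.388). Hnf4a was at the same level in both groups once shallow and deep clusters were separated, at 141 ± 8.92 and 141 ± 28.1 CPM in the shallow and 265 ± 17.3 and 265 ± 11.4 CPM in the deep clusters (n = 3 each). Elf3, with 157, 186 and 202 CPM against 166, 153 and 141 CPM in stem-like cells, had an estimate of -0.36 ± 0.14 (adjusted p = 0.207) that overlapped between groups. In the shallow and deep clusters the difference between the log2 means of Elf3 was 0.06 and -0.07. In the deep enterocyte-like clusters, by contrast, Elf3 was higher in all Fpr2VKO libraries (178 to 215 CPM) than in all Fpr2f/f libraries (154 to 176 CPM), a share of 9.8% of all genes being without overlap there. In the Fabp6 cluster alone the groups did not overlap for Elf3 (147 to 172 CPM against 177 to 210 CPM, 9.46% of all genes), while in the Reg1 cluster they did (153 to 179 CPM against 178 to 218 CPM). In enteroendocrine-like cells Cdx2 was higher in all Fpr2VKO libraries (58.4, 64.7 and 34.6 CPM against 82.0, 75.4 and 73.6 CPM, 0.49 ± 0.25), where 8.41% of all genes had no overlap, and in tuft-like cells Hnf4a and Gata4 were (10.4% of all genes), as was Cdx2, which was too low there to be tested (10.2 to 39.5 CPM against 43.4 to 74.3 CPM). In enterocyte-like cells Klf4 alone had no overlap among the 10 genes, beside 15.8% of all genes.

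None of the other 9 genes was called in any class. Called genes made up 0.12% of those tested in the goblet-like class, 0.0594% in the TA-like, 0.0498% in the Paneth-like, 0.0326% in the tuft-like, 0.0229% in the enteroendocrine-like and 0.0155% in the unnamed cells. The median log2 fold change of the 10 genes lay between -0.03 (enterocyte-like) and 0.06 (Paneth-like), and that of all genes between -0.01 and 0.02. Sox9 had an estimate of 0.20 ± 0.14 in stem-like cells (adjusted p = 0.504). In the deep stem-like clusters it was at 218 ± 50.6 CPM in Fpr2f/f and 222 ± 23.4 CPM in Fpr2VKO, and in the shallow ones at 80.7 ± 12.8 and 89.2 ± 24.1 CPM.

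Klf5 in enterocyte-like cells was at 792, 815 and 1128 CPM in Fpr2f/f and 814, 737 and 1057 CPM in Fpr2VKO, so replicate 3 was the highest of each group, as it was for Hnf4g. Fabp6 in the deep Fabp6 cluster was also highest in replicate 3 of each group, at 6466 and 6049 CPM.

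Among the other factors, of which 10 were tested in tuft-like, 23 in enteroendocrine-like and 27 or 28 in each of the other classes, 0 were called, with 0 to 4 per comparison at an unadjusted p under 0.05. Of the target genes, Vil1, the microvillus protein villin, was higher in stem-like cells of Fpr2VKO (log2 fold change 0.56 ± 0.13, adjusted p = 0.0365). In this class the enterocyte markers and the share of shallow cells given above moved with the groups too, and their part was not tested. Sis, sucrase-isomaltase, was higher in TA-like cells (1.00 ± 0.14, adjusted p = 0.00743). Fabp1 was higher in goblet-like cells (1.44 ± 0.24, adjusted p = 0.00384). Sis and Fabp1 had their highest class means in enterocyte-like cells (2174 and 1463 CPM). Target estimates were above 0 for 16 of 17 genes in TA-like and 10 of 13 in goblet-like cells, with medians of 0.38 and 0.43. The part of class make-up, free RNA and transcripts of other classes in these differences was not tested. No target gene was called as lower, and 13 of 17 had an estimate above 0 over all epithelial cells, with a median of 0.31 beside -0.00 for all genes. In the enterocyte-like class itself 0 of the 17 were called, and their median was 0.35. It was 0.05 in unnamed cells, with 9 of 17 above 0, and -0.0050 in Paneth-like cells, with 7 of 15 above 0.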

How the data were processed

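Per the labels and the study's methods, the authors made libraries on the MobiNova-100 droplet platform and aligned and counted them with MobiVision on mm10 (GRCm38). The deposited files hold raw UMI counts for all genes and every possible barcode, before cell calling. Seurat 4.0.0 is named in the submitters' processing notes. The annotation version and the cell filter limits were not given in the sources used here. The members and lists were chosen with earlier results of these data known.

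Cells were kept by the limits given above, likely doublets were removed by their share of artificial neighbours (0.8% per 1000 cells), and libraries were aligned by mutual nearest neighbours over 30 principal components of 2000 variable genes without the 10 factors. Leiden clusters (resolution 1, leidenalg 0.10.2, Python 3.11.15) were named "-like" where markers of a class were on average at least 0.5 higher on the log2 scale, with at least 3 markers found in 10% of cells. A cluster of 34 cells led by Jchain and Ighm stayed unnamed and counts among the epithelial cells. Free RNA was not subtracted.

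UMI counts were summed per library and class (at least 20 cells) and tested with edgeR 4.0.16 in R 4.3.3 (TMM, filterByExpr, robust quasi-likelihood fit) between 3 Fpr2f/f and 3 Fpr2VKO libraries. The SE is the fold change divided by the square root of the F statistic. The test was checked on simulated data. Non-overlap within deep clusters was counted over the genes tested in their class. DESeq2 1.42.0, other filters, cell limits, a replicate block and the omission of each library were alternatives. The test over single cells in the study's methods was replaced by these library sums. All 10 factors are named, and of the other lists each called gene and the extremes of the enterocyte-like minus stem-like difference, computed as log2(CPM + 1) for these lists. Some genes that these rules would name are not reported here. Zero-count limits are 3 counts over the total and cover counting error only. Gene positions came from GENCODE vM21, matched by gene ID.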

Additional observations from a re-analysis of the deposited data

How the results depend on the processing

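The number of factors called in stem-like cells was 1 as reported. It was 0 under a mitochondrial limit of 10%, where 1 of 8719 genes was called in all, and 0 under a limit of 40% (44 of 11659). Without the shallow stem-like cluster, a setting chosen after seeing the data, it was 0 as well (1 of 10172). With 1 library left out it was 0 to 2, among 33 to 625 genes called (2 without Fpr2f/f replicate 1, when Elf3 was called too). In that last setting 625 of 11164 genes were called, against 147 of 10799 as reported for stem-like cells. The log2 fold change of Klf4 there was -0.0071 (adjusted p = 1.00) under the 10% limit, -0.46 (0.172) under the 40% limit, -0.46 (0.653) without the shallow cluster and -0.78 to -0.68 with 1 library left out. Against 0 as reported, 1 factor, Klf4, was called in enterocyte-like cells without the low count filter and by DESeq2. Of all genes, 271 of 25082 and 60 of 11850 were called in these settings. In unnamed cells 1 factor was called without that filter, beside 266 of 25843 genes. With 1 library left out 0 to 1 was called there, beside 1 to 47 genes in all. Some uncalled estimates changed sign. Under the 10% limit Klf4 went to 0.24 over all epithelial cells and 0.040 in enterocyte-like cells, and over all epithelial cells Hnf4g went to -0.21, Cdx2 to -0.022, Gata4 to -0.12, Gata6 to -0.075 and Elf3 to 0.15. Hnf4g went to -0.069 under the 40% limit and Hnf4a to 0.0060 without the low count filter. Leaving out 1 library gave -0.049 to 0.052 for Hnf4a, -0.065 to 0.17 for Hnf4g, -0.081 to 0.027 for Cdx1, -0.031 to 0.27 for Gata4, -0.17 to 0.066 for Klf5 and -0.15 to 0.065 for Elf3. The cause of these changes was not tested.

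Same-numbered libraries correlated in their deviations from the group means by 0.08, 0.09 and 0.54, and only those of replicate 3 correlated best with their own number, so the numbers were not taken as pairs. With the replicate block Klf4 in stem-like cells stood at -0.72 on the log2 scale (adjusted p = 0.0251), no other factor was called, and the genes called numbered 49 over all epithelial cells (3 without the block), 68 in TA-like (7), 104 in stem-like (147), 66 in enterocyte-like (1), 29 in goblet-like (12) and 46 in Paneth-like cells (5). DESeq2 called 114 genes over all epithelial cells, 29 in TA-like, 60 in enterocyte-like and 36 in unnamed cells (2 with edgeR). Over all alternatives the genes called ranged from 1 to 170 in all epithelial, 1 to 625 in stem-like, 1 to 271 in enterocyte-like, 1 to 111 in TA-like, 4 to 60 in goblet-like, 0 to 54 in Paneth-like, 1 to 17 in enteroendocrine-like, 0 to 9 in tuft-like and 1 to 266 in unnamed cells, and 1 to 100 for the difference between classes, for which DESeq2 and the block were not run. Some alternatives gave no fit for tuft-like and unnamed cells.

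The enterocyte-like minus stem-like difference moved by over 1 SD in 10 of 60 alternatives. Under the 40% limit it went to 0.83 for Hnf4g, 0.22 for Hnf4a, 0.66 for Cdx2, -0.15 for Gata6 and 0.62 for Klf5. Under the 10% limit, with 5 libraries, it went to -0.26 for Cdx1, 0.34 for Gata4, -0.056 for Gata6 and -2.11 for Sox9. Without alignment it went to -0.47 for Klf4. Shares of cells moved in 164 of 180 alternatives, since they depend on the number of UMIs kept. Klf4 had 126 to 238 UMIs per stem-like library, and free RNA was not subtracted from any level.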
